A study of Homo sapiens with 18 samples.

Results

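The genes described here are 38 interferon-stimulated genes, taken by symbol from a table of 40266 genes, and all 38 passed the filter of at least 1 TPM in at least 3 libraries that left 16093 genes for testing. TPM is a level scaled to transcript length and to the library total, so that levels of different genes can be set side by side. The libraries came from 2 pancreatic ductal adenocarcinoma (PDAC) lines grown untreated in the same medium. Panc1, from a primary tumour, served as the mesenchymal-like model and Panc89, from a lymph node metastasis, as the epithelial one. Each line was sequenced as parental cells, as a Holoclone, a colony type rich in cancer stem cells, and as a Paraclone, a more differentiated colony type. There were 6 groups of 3 replicates, 18 libraries in all, and the replicates were stated to be biological triplicates. By the paper's methods, the RNA of each cell variant was taken from 3 passages of the cells. Each Holoclone or Paraclone group was grown from 1 single cell, so that a group stood for 1 clone and a difference between clones cannot be told apart from a difference between colony types.

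Interferons are secreted proteins by which cells signal the presence of viral nucleic acid. Type I and type III interferons bind different receptors, but both activate the kinases JAK1 and TYK2, which phosphorylate STAT proteins. STAT2 and IRF9 are parts of ISGF3, a transcription factor that binds the interferon-stimulated response element (ISRE) in the promoters of many genes with antiviral functions. In tumour cells these genes can be active without infection.

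The ISRE was looked for in the promoters of the 38 genes because it is the element through which they are known to be induced together. The core searched was GAAANNGAAA, on both strands, in the RefSeq promoter windows of GRCh38.p14, each of which ran from 250 bases before to 50 after the start of a transcript. Windows were listed for 31 of the 38 genes and not for *IRF7*, *IFIT2*, *OAS2*, *OASL*, *IFITM2*, *MX2* or *USP18*. At least 1 window held the core in 22 of the 31 genes, or 71.0%, against 3.97% of the 11821 tested genes with a window and 3.57% of all 35116 windows. A match is a description of letters and not of a bound site. The 120 bases before the start are printed for 7 genes, chosen after their values were seen from those that differed between cell variants, with the core in capitals (TTTCNNTTTC where it lies on the opposite strand).

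IFITM1 (chr11:313920-314039, plus strand): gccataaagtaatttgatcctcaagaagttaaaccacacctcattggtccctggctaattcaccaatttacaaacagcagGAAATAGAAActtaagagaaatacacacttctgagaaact
IFITM3 (chr11:320861-320980, minus strand): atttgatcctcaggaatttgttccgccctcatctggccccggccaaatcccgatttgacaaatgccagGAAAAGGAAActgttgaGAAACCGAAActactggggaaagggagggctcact
IFI44 (chr1:78649669-78649788, plus strand): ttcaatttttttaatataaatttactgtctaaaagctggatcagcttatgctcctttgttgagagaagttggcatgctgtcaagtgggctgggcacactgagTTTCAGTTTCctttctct
IFI44L (chr1:78620328-78620447, plus strand): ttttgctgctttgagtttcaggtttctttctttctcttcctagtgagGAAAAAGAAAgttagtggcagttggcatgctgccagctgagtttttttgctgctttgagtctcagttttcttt
IFI27 (chr14:94110616-94110735, plus strand): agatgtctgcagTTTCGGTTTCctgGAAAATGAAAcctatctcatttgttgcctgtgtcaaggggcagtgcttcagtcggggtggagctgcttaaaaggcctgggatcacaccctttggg
EPSTI1 (chr13:42992242-42992361, minus strand): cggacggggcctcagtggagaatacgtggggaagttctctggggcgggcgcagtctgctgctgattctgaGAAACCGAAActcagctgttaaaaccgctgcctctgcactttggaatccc
XAF1 (chr17:6755926-6756045, plus strand): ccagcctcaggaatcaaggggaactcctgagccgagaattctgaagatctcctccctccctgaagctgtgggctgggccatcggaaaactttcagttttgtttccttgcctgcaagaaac

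The neighbours *IFITM1* and *IFITM3* each had 2 cores, which began 40 and 6 bases before the start in *IFITM1*, the second running past the printed window, and 52 and 35 bases before it in *IFITM3*. *IFI44L* had a further core that began 164 bases before its start, outside the printed stretch. No window of *XAF1* held the core. Among the other genes that differed between cell variants, for example, *MX1* and *IFI6* had a window with the core, and *IRF1*, *OAS1* and *SAMD9L* had none.

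All 38 genes had a position in the annotation of GRCh38 (GENCODE 44), and 22 of them lay in 9 sets of neighbours no more than 100000 bases apart. *IFIT2*, *IFIT3*, *IFIT1* and *IFIT5* occupied chr10:89283694-89421605, *IFITM2*, *IFITM1* and *IFITM3* chr11:303655-329475, *OAS1*, *OAS3* and *OAS2* chr12:112905856-113011723, *MX2* and *MX1* chr21:41361999-41470071, and *IFI44L* and *IFI44* chr1:78619902-78664078. The 3 *IFITM* genes are closely similar in sequence, and the authors' pseudoalignment divided shared reads between them by estimate, so that their separate levels are less certain than those of the other genes.

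Levels were far higher in Panc89 than in Panc1. The median over the 38 genes was between 6.34 and 16.1 TPM in the 9 Panc1 libraries and between 42.6 and 146 TPM in the 9 Panc89 libraries. Summed over the 38 genes, the level was 1416 to 4422 TPM in Panc1 and 4675 to 16964 TPM in Panc89. At least 100 TPM was reached by 1 to 4 genes in a Panc1 library and by 9 to 24 genes in a Panc89 library. For 25 of the 38 genes every Panc89 library was above every Panc1 library, as it was for 15.4% of all genes tested.

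**Figure D1:**
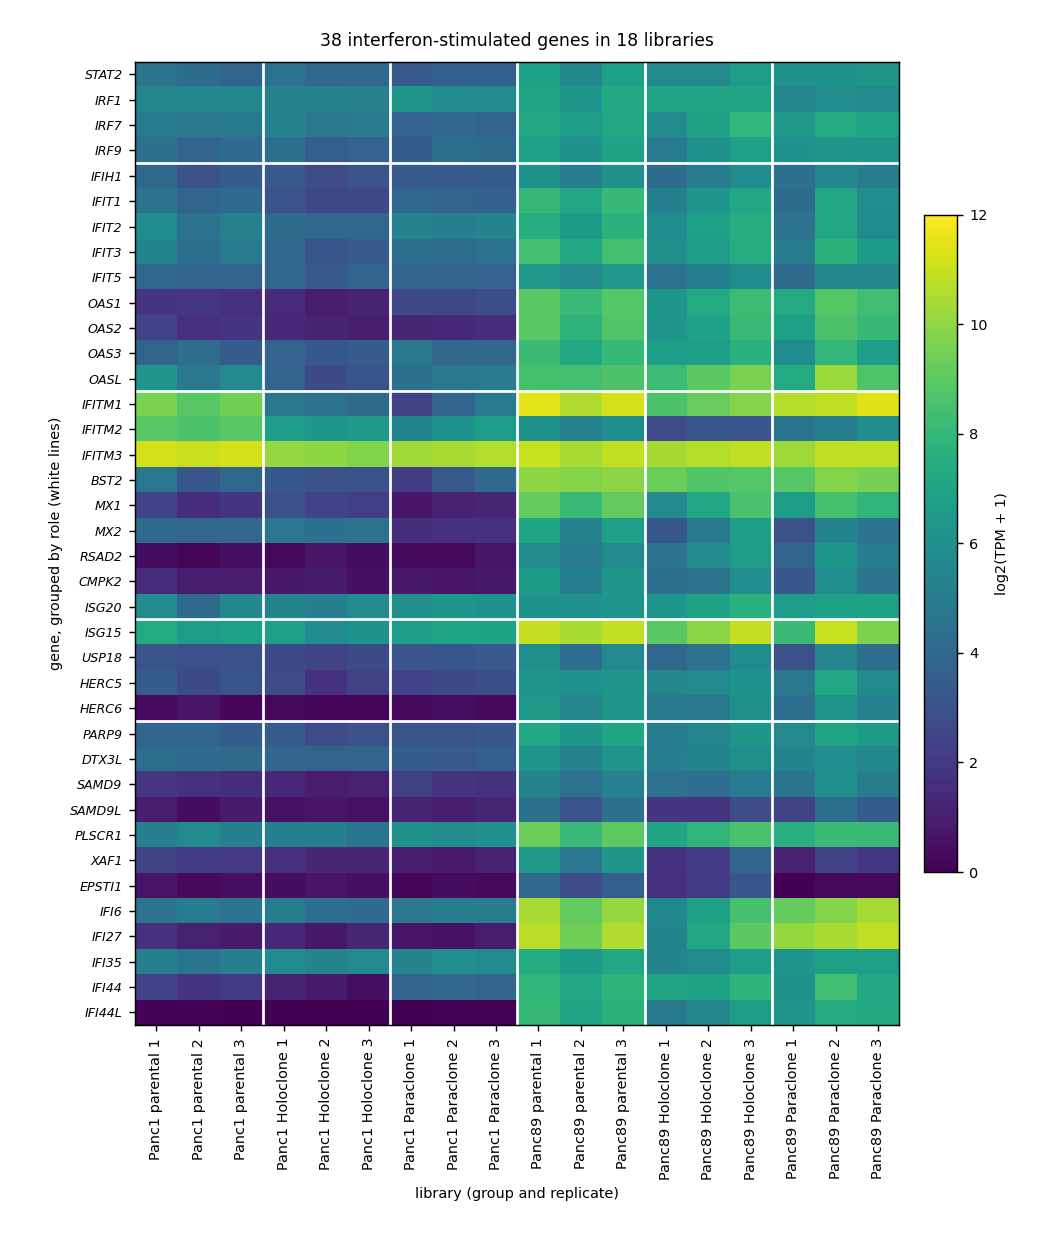
Level of the 38 genes (rows, grouped by role between white lines) in the 18 libraries (columns, 3 replicates a group), as colour on the log2(TPM + 1) scale. The 9 Panc89 libraries on the right are brighter than the 9 Panc1 libraries for most genes, and IFITM2 is the reverse.

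The libraries held 12932 to 14199 genes at 1 TPM or more, mitochondrial transcripts took 5.62% to 9.44% of all TPM, and replicates correlated at r = 0.954 to 0.992 across the tested genes. Vimentin (*VIM*), a mesenchymal marker, was at 3295 to 4549 TPM in parental Panc1 and under 1 TPM in every Panc89 library, and E-cadherin (*CDH1*), an epithelial one, was at 73.3 to 77.9 TPM in parental Panc89 and 0.721 to 1.83 TPM in parental Panc1. Not every marker separated the lines in this way. The epithelial keratins *KRT8* and *KRT18* were on average at 1411 and 1463 TPM in parental Panc1 and 762 and 1103 TPM in parental Panc89, and the mesenchymal N-cadherin *CDH2* at 4.67 and 3.10 TPM. Of the leukocyte markers, *PTPRC*, *CD3E*, *LYZ* and *NKG7* were under 1 TPM in every group, while *CD68* reached 151 TPM in Panc1 Paraclone cells. Of the plasmacytoid dendritic cell markers, *CLEC4C* and *LILRA4* were under 1 TPM in every group as well. *IL3RA*, the third marker of that list, was at 0.145 to 1.17 TPM in the Panc1 and 1.16 to 4.04 TPM in the Panc89 libraries, so that its ranges in the lines only just overlapped. Its part in the differences was not tested. The files held no counts, so that the depth of a library was unknown. In bulk samples, more expressing cells and more RNA in each cell cannot be told apart.

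The first question was how the lines differed within each cell variant. In parental cells, 36 of the 38 genes were higher in Panc89 and 1 was lower, where 27.5% of all tested genes were higher and 38.5% lower. The median difference was 3.11 on the log2 scale, that is, of log2(TPM + 1), over the 38 genes and -0.18 over all tested genes. Holoclone cells gave 35 higher and 1 lower gene (all genes 29.3% and 36.4%), with a median difference of 2.73. Paraclone cells gave 30 higher and 1 lower gene (all genes 30.2% and 30.4%), with a median difference of 2.65. *IFITM2* was the gene lower in Panc89 in all 3 cell variants, and 28 genes were higher in all 3, where 21.6% of all tested genes were lower and 17.8% higher in all 3. All p-values were adjusted by the Benjamini-Hochberg method over all tested genes, and they measure the spread between replicates of these lines and clones. When the scaling of the libraries was changed, the share of called genes that were higher in parental Panc89 moved from 41.6% to at most 51.6%, and the counts for the 38 genes stayed at 37, 36 and 31.

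**Figure D2:**
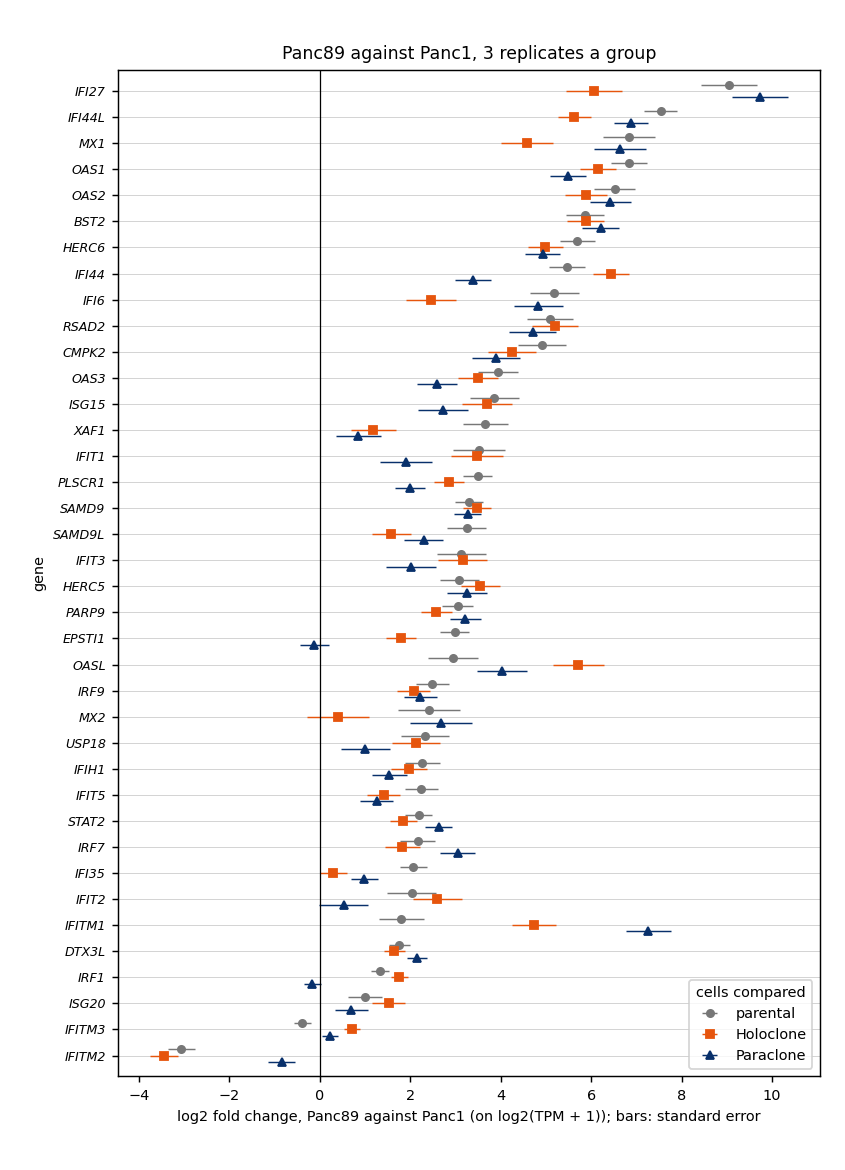
Log2 fold change of each gene between Panc89 and Panc1 (horizontal axis, on log2(TPM + 1), bars giving the standard error) in parental, Holoclone and Paraclone cells, with 3 replicates a group. IFI27 lies farthest to the right in parental cells at 9.05, and IFITM2 lies left of 0 in all 3 comparisons.

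Among the transcription factors, *STAT2* and *IRF9*, which are parts of ISGF3, were measured at 9.28 to 23.2 TPM and 10.5 to 20.4 TPM in Panc1, and at 48.3 to 117 TPM and 31.0 to 125 TPM in Panc89. Neither gene overlapped between the lines. *IRF7*, which amplifies interferon production, was at 12.8 to 38.9 TPM in Panc1 and 52.6 to 242 TPM in Panc89. *IRF1*, an interferon-inducible activator that binds related elements, overlapped between the lines, at 36.9 to 75.4 TPM and 45.8 to 149 TPM. In Paraclone cells the difference of *IRF1* between the lines was -0.17 ± 0.19 (log2, standard error, adjusted p = 0.467).

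The genes of viral RNA sensing and binding divided by their level in Panc1. *IFIH1*, which encodes the double-stranded RNA sensor MDA5, was at 5.66 to 15.7 TPM in Panc1 and 17.6 to 67.8 TPM in Panc89. The *IFIT* genes encode proteins that bind viral RNA. In Panc1 *IFIT1*, *IFIT2*, *IFIT3* and *IFIT5* were at 4.98 to 23.9, 15.1 to 56.7, 8.13 to 42.1 and 9.16 to 15.7 TPM. In Panc89 they were at 17.7 to 262, 21.5 to 199, 30.2 to 343 and 16.6 to 84.7 TPM, in the same order. The lines overlapped for all of them but *IFIT5*. In Paraclone cells the difference of *IFIT2* between the lines was 0.53 ± 0.54 (adjusted p = 0.417). The OAS enzymes make 2′-5′ oligoadenylates that activate RNase L. *OAS1* was measured at 2.45, 2.68 and 2.15 TPM in parental Panc1 and at 481, 269 and 456 TPM in parental Panc89, a difference of 6.83 ± 0.40 (adjusted p = 5.56e-10). *OAS2* was at 4.32, 2.09 and 2.49 TPM against 481, 213 and 426 TPM, a difference of 6.52 ± 0.46. These groups lay far apart. *OAS3* was already at 8.92 to 27.3 TPM in Panc1 and reached 290 TPM in Panc89. *OASL*, an OAS-like protein without the enzymatic activity, was at 5.48 to 74.8 TPM in Panc1 and 158 to 1183 TPM in Panc89.

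Of the genes acting on entry, replication and release of viruses, *BST2*, which encodes tetherin, was measured at 25.2, 8.64 and 15.6 TPM in parental Panc1 and at 990, 866 and 952 TPM in parental Panc89. The difference was 5.86 ± 0.42 in parental, 5.87 ± 0.42 in Holoclone and 6.21 ± 0.42 in Paraclone cells. *MX1*, a dynamin-like GTPase, was at 0.638 to 6.73 TPM in Panc1 and 49.4 to 564 TPM in Panc89. *MX2*, its neighbour, was at 1.95 to 25.3 TPM and 6.79 to 134 TPM, and in Holoclone cells the lines differed by 0.40 ± 0.68 (adjusted p = 0.625). *RSAD2*, which encodes viperin, was under 1 TPM in all 9 Panc1 libraries and at 13.4 to 94.5 TPM in Panc89, and its neighbour *CMPK2*, a nucleotide kinase, was at 0.427 to 1.72 TPM and 8.52 to 91.5 TPM. *ISG20*, an exonuclease, showed the smallest called increase in parental Panc89, 1.00 ± 0.37 (adjusted p = 0.026), and was at 16.4 to 80.7 TPM in Panc1.

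The *IFITM* genes encode membrane proteins that hinder fusion of entering viruses. *IFITM1* was higher in Panc89 by 1.80 ± 0.49 in parental, 4.73 ± 0.49 in Holoclone and 7.27 ± 0.49 in Paraclone cells. Its levels overlapped between the lines, at 4.07 to 756 TPM in Panc1 and 400 to 2930 TPM in Panc89. *IFITM2* and *IFITM3* did not follow the rest in parental cells. *IFITM3* was the most abundant of the 38 genes in Panc1, at 856 to 2394 TPM, and was at 1245 to 2061 TPM in Panc89. It was the gene that did not pass the test in parental cells, with a difference of -0.39 ± 0.18 (adjusted p = 0.0699). *IFITM2* was measured at 486, 399 and 483 TPM in parental Panc1 and at 69.8, 38.5 and 56.9 TPM in parental Panc89, a difference of -3.06 ± 0.31 (adjusted p = 2.96e-07). The groups did not overlap, and Panc1 was the higher one. In Paraclone cells the difference of *IFITM2* was -0.85 ± 0.31 (adjusted p = 0.0258), and this call was lost when only those 2 groups were fitted (adjusted p = 0.125).

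*ISG15* encodes a ubiquitin-like protein that is attached to other proteins by HERC5 and removed by USP18. *ISG15* was at 54.7 to 160 TPM in Panc1 and 292 to 2049 TPM in Panc89, *HERC5* at 2.24 to 10.2 TPM and 26.3 to 144 TPM, and *USP18*, which also restrains the type I interferon receptor, at 4.55 to 9.26 TPM and 6.84 to 58.7 TPM. *HERC6* was under 1 TPM in all 9 Panc1 libraries and at 19.2 to 85.1 TPM in Panc89. All 4 of these genes were called higher in parental Panc89.

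Of the other induced genes, *IFI27*, a small mitochondrial and nuclear membrane protein, showed the largest difference of the 38 in parental cells. It was measured at 2.12, 1.10 and 0.818 TPM in parental Panc1 and at 1712, 672 and 1532 TPM in parental Panc89, a difference of 9.05 ± 0.61 (adjusted p = 2.96e-09). *IFI44L* was at 0.0958 TPM or less in every Panc1 library and at 265, 130 and 211 TPM in parental Panc89, a difference of 7.54 ± 0.37 that understates the ratio because 1 is added to each TPM. Its neighbour and relative *IFI44* was measurable in Panc1, at 0.363 to 14.4 TPM, and was at 70.8 to 318 TPM in Panc89. *IFI6*, an inhibitor of apoptosis, was at 17.1 to 33.3 TPM in Panc1 and 47.0 to 1389.7 TPM in Panc89.

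The remaining induced genes were higher in parental Panc89 as well. *PARP9* and *DTX3L*, which form a complex and lie head to head on chromosome 3, were at 5.74 to 14.2 TPM and 9.14 to 19.5 TPM in Panc1 and at 33.4 to 142 TPM and 33.7 to 80.4 TPM in Panc89. *SAMD9* and *SAMD9L*, paired antiviral genes on chromosome 7, were at 0.925 to 3.83 TPM and 0.339 to 1.34 TPM in Panc1 and at 18.3 to 64.2 TPM and 2.47 to 20.7 TPM in Panc89. *PLSCR1*, a phospholipid scramblase, was at 24.5 to 67.8 TPM and 138 to 626 TPM. *IFI35* was at 23.8 to 58.1 TPM and 41.0 to 168 TPM. *XAF1*, which binds the apoptosis inhibitor XIAP, was at 0.834 to 4.20 TPM in Panc1 and spread from 1.28 to 89.8 TPM in Panc89. *EPSTI1* was at 0.171 to 0.635 TPM in Panc1 and spread from 0.0176 to 14.7 TPM in Panc89. The spread of *XAF1* and *EPSTI1* in Panc89 followed the cell variants, as described below.

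The genes above and beside the 38 in the pathway were counted by lists. Of 35 other interferon-stimulated genes, 30 were higher and 1 was lower in parental Panc89, with a median difference of 1.58. Of 18 sensors, adaptors and kinases upstream of the interferons, 12 were higher and 2 lower. Of 10 negative regulators, 2 were higher and 1 was lower. Of all tested genes, 27.5% were higher and 38.5% lower in this comparison. Of 22 interferon genes, *IFNL1*, which encodes a type III interferon, alone passed the filter. It was lower in parental Panc89 (-1.43 ± 0.60, adjusted p = 0.0449), at 1.88, 1.01 and 2.47 TPM against 18.03, 1.22 and 8.36 TPM in parental Panc1, so that 1 parental Panc1 library lay within the Panc89 range. *IFNB1*, the type I interferon of epithelial cells and fibroblasts, was at 0.363 to 2.71 TPM in the 9 Panc89 libraries and at 0.0347 TPM or less in Panc1. *IFNG* was listed at 0 in every library.

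The next question was how Holoclone and Paraclone cells differed within each line. In Panc1, 3 of the 38 genes were higher and 7 lower in Holoclone than in Paraclone cells, where 27.4% of all tested genes were higher and 9.97% lower, with a median change of -0.18 over the 38 genes and 0.19 over all tested genes. In Panc89, 2 were higher and 6 lower, where 22.4% of all tested genes were higher and 13.3% lower, with medians of -0.07 and 0.09. None of the 38 genes was called in the same direction in both lines by limma, where 7.54% of all tested genes were higher and 2.09% lower in both, and *IRF1* was called in opposite directions, as were 4.92% of all tested genes. The shares of higher genes depended on the scaling. Among all called genes, 73.3% were higher in Panc1 Holoclone cells as deposited and 51.3% or 46.8% after the libraries were rescaled by the upper quartile or by the median of ratios, and in Panc89 these shares were 62.8%, 52.5% and 49.1%.

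**Figure D3:**
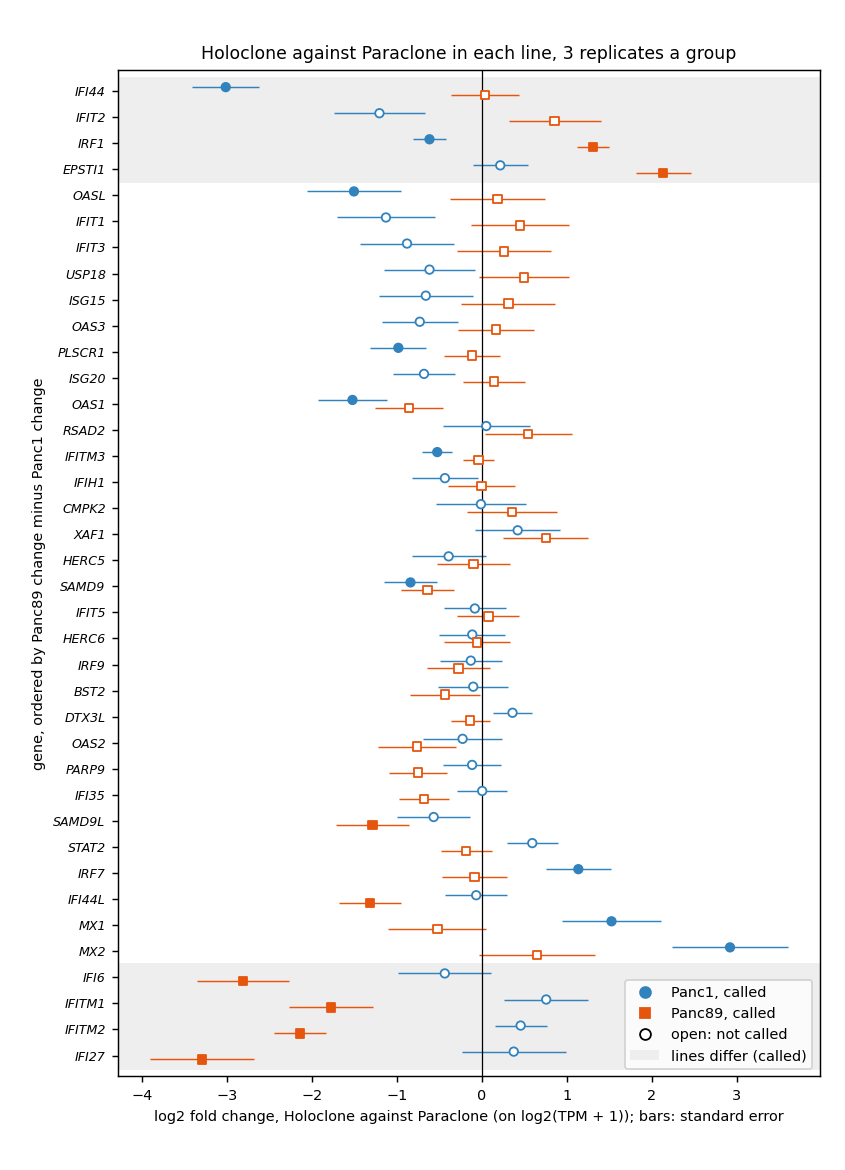
Log2 fold change between Holoclone and Paraclone cells (horizontal axis, on log2(TPM + 1), bars giving the standard error) in Panc1 (circles) and Panc89 (squares), filled where called and on grey where the change differed between the lines. The filled symbols mark 10 genes in Panc1 and 8 in Panc89, and IRF1 is filled on both sides of 0.

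In Panc1, *MX2* and *MX1* were the genes most raised in Holoclone cells. *MX2* was measured at 25.3, 20.0 and 22.05 TPM in Holoclone and at 1.95, 2.07 and 2.23 TPM in Paraclone cells, a change of 2.92 ± 0.68 (adjusted p = 0.00315). *MX1* was at 6.73, 4.39 and 3.63 TPM against 0.638, 1.11 and 1.33 TPM (1.53 ± 0.58, adjusted p = 0.0489). For both genes the groups did not overlap. *IRF7* rose by 1.14 ± 0.38 (adjusted p = 0.0282), from 12.8, 15.4 and 13.5 TPM to 38.9, 26.2 and 31.2 TPM. The calls of *MX1* and *IRF7* were lost under both other scalings (adjusted p between 0.0943 and 0.120). *MX1* also lost its call without the trend (adjusted p = 0.0512) and without any 1 of the replicates compared (0.0682 to 0.147). *IRF7* lost its call without Holoclone replicate 1 or 3 and without any 1 Paraclone replicate (0.0521 to 0.0979).

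The gene most lowered in Panc1 Holoclone cells was *IFI44*, at 1.29, 0.829 and 0.363 TPM against 12.9, 14.4 and 13.1 TPM in Paraclone cells, a change of -3.02 ± 0.40 (adjusted p = 2.67e-05). Its neighbour *IFI44L* was near 0 in both. *OAS1* was at 1.65, 0.878 and 1.21 TPM against 5.05, 5.15 and 6.05 TPM (-1.52 ± 0.40), while *OAS2* (-0.23 ± 0.46) and *OAS3* (-0.73 ± 0.45), which lie beside it, were not called. *OASL* (-1.51 ± 0.56), *PLSCR1* (-0.98 ± 0.33), *SAMD9* (-0.84 ± 0.31), *IRF1* (-0.62 ± 0.19) and *IFITM3* (-0.53 ± 0.18) were lower too. The fit shared 1 estimate of the spread over all 6 groups, and the 38 genes varied less between Panc1 than between Panc89 replicates. Fitted on the 2 Panc1 groups alone, 5 genes were higher and 13 lower, where 27.3% of all tested genes were higher and 10.5% lower. With no filter on low values 4 genes were called, and *MX1*, *IRF7*, *OASL*, *PLSCR1* and *SAMD9* were not, at adjusted p between 0.0581 and 0.101. The count of 10 fell to 3 without Holoclone replicate 3, to 4 without Paraclone replicate 1, to 5 without Paraclone replicate 2 or 3, and to 6 without Holoclone replicate 2. *OASL* (adjusted p = 0.0602 to 0.147) and *SAMD9* (0.0531 to 0.140) lost their calls in each of these fits. *SAMD9* also lost its call with a replicate block (0.0715). *PLSCR1* lost its call without Holoclone replicate 3 or Paraclone replicate 1 or 3 (0.0664 to 0.108). *IRF1* lost its call without Holoclone replicate 3 (0.0558) or Paraclone replicate 1 (0.0947).

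In Panc89, *EPSTI1*, a gene first described in epithelial cells cultured with stroma, was most raised in Holoclone cells. It was measured at 2.03, 3.43 and 8.29 TPM in Holoclone and at 0.0176, 0.216 and 0.189 TPM in Paraclone cells, a change of 2.13 ± 0.32 (adjusted p = 0.000103). *IRF1* was at 138, 127 and 127 TPM against 45.8, 58.0 and 53.0 TPM (1.31 ± 0.19, adjusted p = 7.51e-05). The groups did not overlap for either gene, and the replicates of *IRF1* lay close together.

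The genes lowered in Panc89 Holoclone cells were led by *IFI27*, at 41.0, 146 and 509 TPM against 1107, 1446 and 1847 TPM in Paraclone cells (-3.29 ± 0.61, adjusted p = 0.000614). *IFI6* was at 47.0, 113 and 364 TPM against 568, 879 and 1389.7 TPM (-2.81 ± 0.55). The replicates within a group spread over a wide range, but for both genes every Holoclone library was below every Paraclone library. *IFITM2* was at 5.87, 8.53 and 8.00 TPM against 23.7, 34.4 and 57.1 TPM (-2.14 ± 0.31, adjusted p = 5.87e-05), and *IFITM1* at 400.3, 600.2 and 863 TPM against 1622, 1835 and 2803.5 TPM (-1.77 ± 0.49). *IFITM3*, the third gene of this locus, was at 1340.3, 1646 and 1825 TPM against 1245, 1872 and 1867 TPM (-0.04 ± 0.18, adjusted p = 0.906). *IFI44L* (-1.32 ± 0.37) and *SAMD9L* (-1.29 ± 0.43) completed the called genes. Fitted on these 2 groups alone, 4 genes were called, *IRF1*, *EPSTI1*, *IFITM1* and *IFITM2* (all tested genes 13.5% higher and 7.48% lower). In that fit the adjusted p was 0.0512 for *IFI27*, 0.0542 for *IFI6*, 0.138 for *IFI44L* and 0.165 for *SAMD9L*. Without Paraclone replicate 3, 5 genes were called.

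The change between Holoclone and Paraclone cells was itself compared between the lines, as the Panc89 change minus the Panc1 change. It was higher for 4 of the 38 genes and lower for 4, where 14.8% of all tested genes were higher and 20.4% lower. The higher genes were *IFI44* (3.05 ± 0.56), *IFIT2* (2.06 ± 0.76), *IRF1* (1.93 ± 0.27) and *EPSTI1* (1.92 ± 0.46). The lower ones were *IFI27* (-3.67 ± 0.87), *IFITM2* (-2.60 ± 0.43), *IFITM1* (-2.53 ± 0.70) and *IFI6* (-2.38 ± 0.77). The calls of *IFIT2* and *IFI6* were lost with no filter on low values (adjusted p = 0.0925 and 0.0547) and with only these 4 groups fitted (0.0663 and 0.0503). With 1 of the 12 replicates left out, *IFIT2* lost its call in 10 of 12 fits (adjusted p up to 0.117) and *IFI6* in 5 (up to 0.0673). *IFIT2* was not called within either line. It was at 18.2, 15.3 and 15.1 TPM in Panc1 Holoclone and 38.4, 35.7 and 42.0 TPM in Panc1 Paraclone cells, and its 3 Panc89 Paraclone values, 21.5, 143 and 56.7 TPM, overlapped those of the Panc89 Holoclone cells, 56.2, 111 and 172 TPM.

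The lists beside the 38 genes were counted in the same comparisons. In Panc1, 1 of 35 other interferon-stimulated genes was higher in Holoclone cells and 9 were lower (all tested genes 27.4% and 9.97%). The lowest were *LGALS3BP* (-2.40 ± 0.16) and *TNFSF10*, which encodes the death ligand TRAIL (-2.14 ± 0.42), and *GBP1*, *GBP2*, *GBP3*, *APOL6* and *UBA7* were lowered by more than 1. In Panc89, 11 of these 35 genes were higher in Holoclone cells and 5 were lower (all tested genes 22.4% and 13.3%). *TRIM22* (2.86 ± 0.58), *LAMP3* (2.49 ± 0.82), *CXCL10*, a chemokine for T cells (2.43 ± 0.71), *RTP4*, *UBA7*, *UBE2L6*, *TNFSF10*, *TRIM5* and *TRIM14* were raised by more than 1, and *DDX60L*, *GBP2* and *HELZ2* were lowered by more than 1. *GBP2* and *LGALS3BP* were thus lower in Holoclone cells of both lines, *LGALS3BP* by -0.63 ± 0.16 in Panc89, while *TNFSF10* and *UBA7* were called in opposite directions.

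Of the 18 upstream genes, 3 were higher and 3 lower in Panc1 Holoclone cells (all tested genes 27.4% and 9.97%). *STING1*, the adaptor of cytosolic DNA sensing (-1.91 ± 0.38), and *TREX1* were lowered and *IRF5* and *TRIM25* raised by more than 1. In Panc89 Holoclone cells 5 were higher and 2 lower (all tested genes 22.4% and 13.3%). *AIM2* (1.33 ± 0.16), *IRF5* (1.29 ± 0.26) and *IFI16* (1.26 ± 0.28) were raised by more than 1. Among the 10 negative regulators, 4 were higher and 1 lower in Panc1 Holoclone cells, and 1 was higher and 2 lower in Panc89 Holoclone cells. *PTPN2*, a phosphatase that acts on JAK1, rose by 1.23 ± 0.12 in Panc1 Holoclone cells. *SOCS2* fell by 2.64 on the log2 scale in Panc89 Holoclone cells but was higher in Panc1 Holoclone cells (0.55 ± 0.21, adjusted p = 0.0492). The change of *SOCS2* differed between the lines by -3.19 ± 0.29 (adjusted p = 8.24e-07).

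Each clone was then compared with its parental line. In Panc1 the *IFITM* locus set both clones apart. *IFITM1* was measured at 756, 472 and 706 TPM in parental cells, at 27.3, 21.4 and 16.6 TPM in Holoclone cells and at 4.07, 13.2 and 30.9 TPM in Paraclone cells. The change was -4.82 ± 0.49 in Holoclone cells (adjusted p = 1.11e-05) and -5.58 ± 0.49 in Paraclone cells (adjusted p = 5.87e-07). The lowest parental library was well above all 6 clone libraries. *IFITM2* fell from 456 ± 49.1 TPM (SD, n = 3) to 90.8 ± 11.4 TPM and 69.0 ± 25.8 TPM, with changes of -2.32 ± 0.31 and -2.77 ± 0.31. *IFITM3* changed less, by -1.23 ± 0.18 and -0.71 ± 0.18, and its change in Paraclone cells lost its call under both other scalings (adjusted p = 0.0665 and 0.0987). The decrease thus ordered *IFITM1*, *IFITM2* and *IFITM3* alike in both clones. The clones of Panc1 shared their parental control.

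In Panc1 Holoclone cells, 5 of the 38 genes were lower than in parental cells and none was higher, where 5.06% of all tested genes were lower and 5.87% higher. Beside the 3 *IFITM* genes, the lower genes were *OASL*, from 74.8, 27.0 and 52.8 TPM to 13.3, 5.48 and 7.56 TPM (-2.39 ± 0.56, adjusted p = 0.0106), and *IFI44* (-1.29 ± 0.40, adjusted p = 0.0483). The call of *IFI44* was lost with no filter on low values (adjusted p = 0.0944), with a replicate block (0.0836), without the trend (0.0513) and without any 1 of the 6 replicates compared (0.0593 to 0.193). At an unadjusted p under 0.05 there were 9 genes, the others being *IFIT1*, *IFIT3* and *BST2*, with changes below 0, and *IFI35*, with one above 0. Without parental replicate 1, 3 genes were called. In Panc1 Paraclone cells, 5 genes were lower and 1 was higher, where 21.3% of all tested genes were lower and 7.31% higher. Beside the *IFITM* genes, *MX2* was lower (-2.39 ± 0.68), from 16.5, 14.8 and 14.3 TPM, and so was *DTX3L* (-0.75 ± 0.23), a call lost under both other scalings. *IFI44* was higher (1.72 ± 0.40, adjusted p = 0.0044), from 4.29, 2.59 and 3.44 TPM. The 3 Holoclone values of *IFI44* lay below the parental ones and the 3 Paraclone values above them. Fitted on 2 groups alone, 10 genes were called in Paraclone cells, 2 higher and 8 lower (all tested genes 6.56% and 16.5%). Under the other scalings 3 of the 38 genes were higher and 3 lower (upper quartile), or 4 higher and 3 lower (median of ratios). Among all called genes, the share that was higher in Panc1 Paraclone cells moved from 25.6% to 47.4% and 55.2% under the other scalings.

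*IFNL1* was lower in Panc1 Paraclone than in parental cells (-2.26 ± 0.60, adjusted p = 0.0102), at 0.349, 0.607 and 0.644 TPM. In Panc1 Holoclone cells, at 1.60, 2.24 and 1.37 TPM, it did not pass the test (-1.44 ± 0.60 against parental cells).

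**Figure D4:**
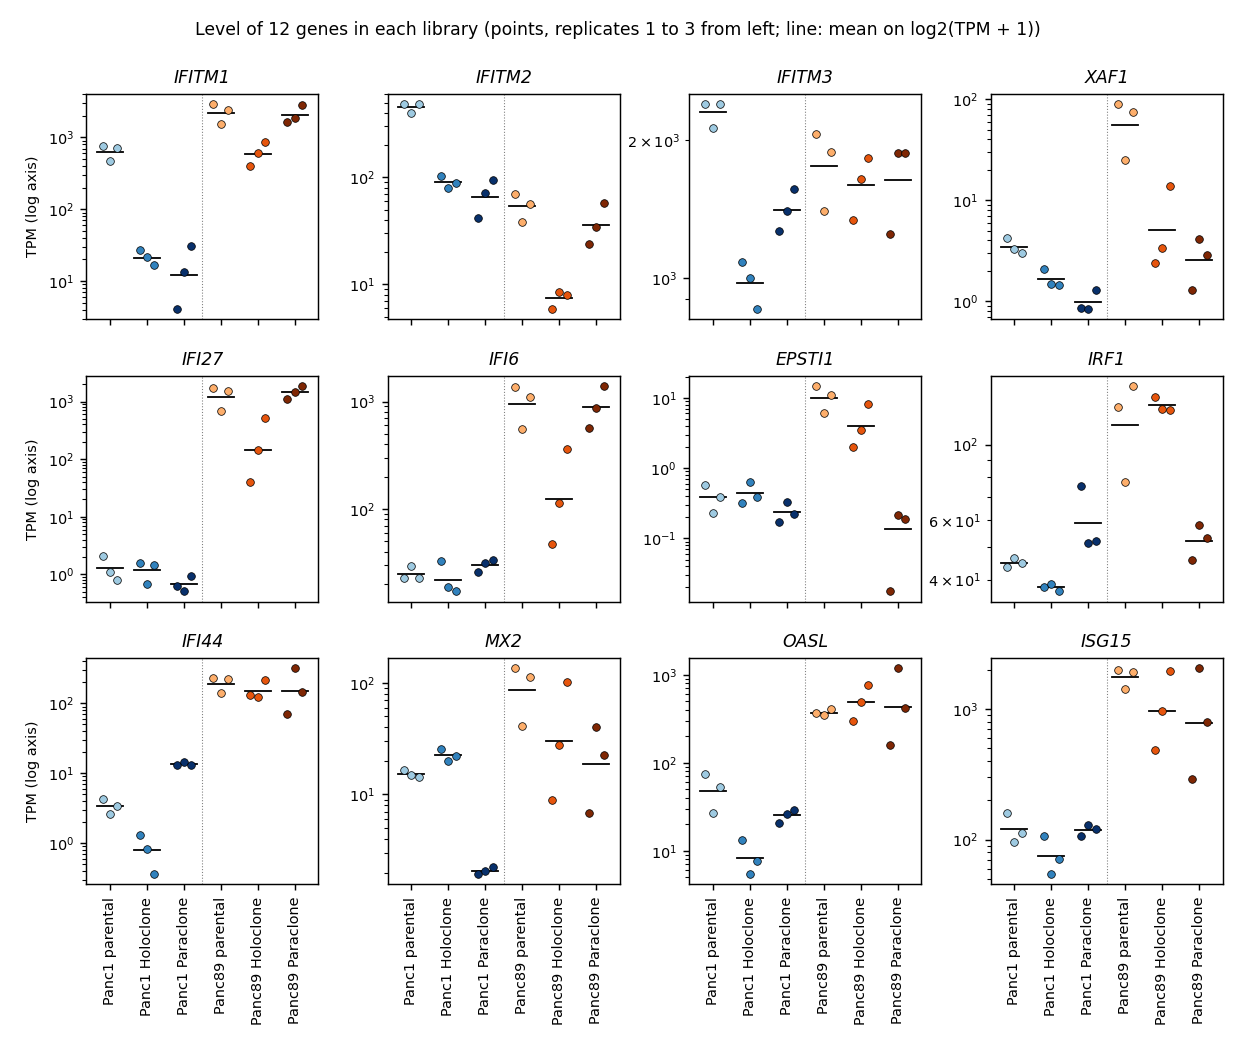
Level of 12 genes in each library (vertical axis, TPM on a log scale, points for the 3 replicates of each group, lines for the mean on the log2(TPM + 1) scale). IFITM1 is at 472 TPM or more in parental Panc1 and at 30.9 TPM or less in both Panc1 clones, and EPSTI1 is lower in Panc89 Paraclone cells than in the other Panc89 groups.

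In Panc89 Holoclone cells 14 of the 38 genes were lower than in parental cells and none was higher, where 8.61% of all tested genes were lower and 16.1% higher, with a median change of -0.93 over the 38 genes and 0.08 over all tested genes. At an unadjusted p under 0.05 there were 22 genes. *XAF1* changed most, from 89.8, 25.1 and 75.1 TPM to 2.36, 3.36 and 13.95 TPM (-3.23 ± 0.50, adjusted p = 0.000192). *IFI27* (-3.05 ± 0.61), *IFI6* (-2.90 ± 0.55), *IFITM2* (-2.70 ± 0.31), *IFI44L* (-1.97 ± 0.37) and *IFITM1* (-1.89 ± 0.49) followed. The other 8, *SAMD9L*, *MX1*, *OAS2*, *OAS1*, *PARP9*, *EPSTI1*, *IFI35* and *PLSCR1*, changed by between -1.82 and -0.97. Fitted on these 2 groups alone, 5 genes were lower, *IFITM1*, *IFITM2*, *XAF1*, *IFI44L* and *BST2* (all tested genes 13.5% higher and 6.97% lower). In that fit the adjusted p was 0.0756 for *IFI27* and 0.0530 for *IFI6*. With 1 replicate left out, 7 genes were lower without parental replicate 1, parental replicate 3 or Holoclone replicate 2, 7 were lower and 1 was higher without Holoclone replicate 1, 17 were lower without parental replicate 2, and 20 were lower without Holoclone replicate 3. Among all called genes, the share that was higher moved from 65.2% to 51.3% and 51.1% under the other scalings.

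In Panc89 Paraclone cells 6 genes were lower than in parental cells and none was higher, where 10.0% of all tested genes were lower and 9.37% higher, with a median change of -0.55 over the 38 genes and -0.02 over all tested genes. At an unadjusted p under 0.05 there were 10 genes. *XAF1* again changed most, to 1.28, 4.18 and 2.88 TPM (-3.98 ± 0.50, adjusted p = 4.36e-05). *EPSTI1* fell from 14.7, 6.12 and 10.9 TPM to the levels given above (-3.27 ± 0.32, adjusted p = 4.55e-06). *MX2* (-2.14 ± 0.68), *IFIT1* (-1.95 ± 0.58), *IRF1* (-1.12 ± 0.19) and *IFIT5* (-1.08 ± 0.36) followed. The calls of *MX2*, *IFIT1* and *IFIT5* were lost with only these 2 groups fitted (adjusted p = 0.122, 0.159 and 0.177) and with no filter on low values (0.0770, 0.0569 and 0.0906). *IFI27* (0.25 ± 0.61), *IFI6* (-0.09 ± 0.55) and *IFITM1* (-0.12 ± 0.49), all lower in Holoclone cells, were not called in Paraclone cells. The count was 3 without parental replicate 1, parental replicate 3 or Paraclone replicate 1, 10 without parental replicate 2 and 13 without Paraclone replicate 2.

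Other measured genes moved with these groups. *PECAM1*, an endothelial marker, was at 64.7, 53.2 and 62.5 TPM in parental Panc89 and at 0.565 to 6.90 TPM in its clones, *CDH5* was at 1.99 to 5.07 TPM in parental cells, and *VWF* was under 1 TPM in every group. Their part in the differences was not tested. *IFNGR1*, a subunit of the interferon gamma receptor, was lower in both Panc89 clones than in parental cells, by -1.53 ± 0.24 in Holoclone and -1.11 ± 0.24 in Paraclone cells.

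In both lines the 38 genes tended to be highest or lowest in the same replicate of a group. In Panc1 the highest library was replicate 1 for 31 of 38 genes in parental cells (38.9% of all tested genes), replicate 1 for 30 in Holoclone cells (41.3%) and replicate 3 for 23 in Paraclone cells (37.1%). In parental Panc89 cells replicate 2 was the lowest library for all 38 genes, as it was for 52.0% of all tested genes. In Panc89 Holoclone cells replicate 3 was the highest for 35 of 38 genes (27.5% of all tested genes), the exceptions being *IRF1*, *IFITM2* and *BST2*, and replicate 1 was the lowest for 31 (26.5%). In Panc89 Paraclone cells replicate 1 was the lowest for 37 of 38 genes (39.7%), the exception being *STAT2*, and replicate 2 was the highest for 30 (49.5%). The numbers name replicates and give no order. These shares are descriptions, since the 38 genes of 1 library are not independent of each other.

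This variation was larger in Panc89 than in Panc1, most of all in the Panc89 clones. The median standard deviation of the 38 genes on the log2(TPM + 1) scale was 0.51, 0.73 and 0.71 in parental, Holoclone and Paraclone Panc89 cells, against 0.13, 0.22 and 0.22 over all tested genes. In Panc1 it was 0.27, 0.26 and 0.15, against 0.18, 0.16 and 0.17. Adding 1 to each TPM narrows the standard deviation of genes at low levels, as several of the 38 were in Panc1. The highest of 3 replicates was a median of 2.77 times the lowest in Panc89 Holoclone and 2.80 times in Panc89 Paraclone cells over the 38 genes, and 1.45 and 1.46 times over all tested genes. In parental Panc89 cells this ratio was 1.93. It was 1.67, 1.59 (37 genes) and 1.32 in parental, Holoclone and Paraclone Panc1 cells. *ISG15* was at 489, 961 and 1953 TPM in Panc89 Holoclone cells and at 292, 2049 and 802 TPM in Panc89 Paraclone cells. *OASL* was at 158, 1183 and 416 TPM in the same Paraclone libraries.

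**Figure D5:**
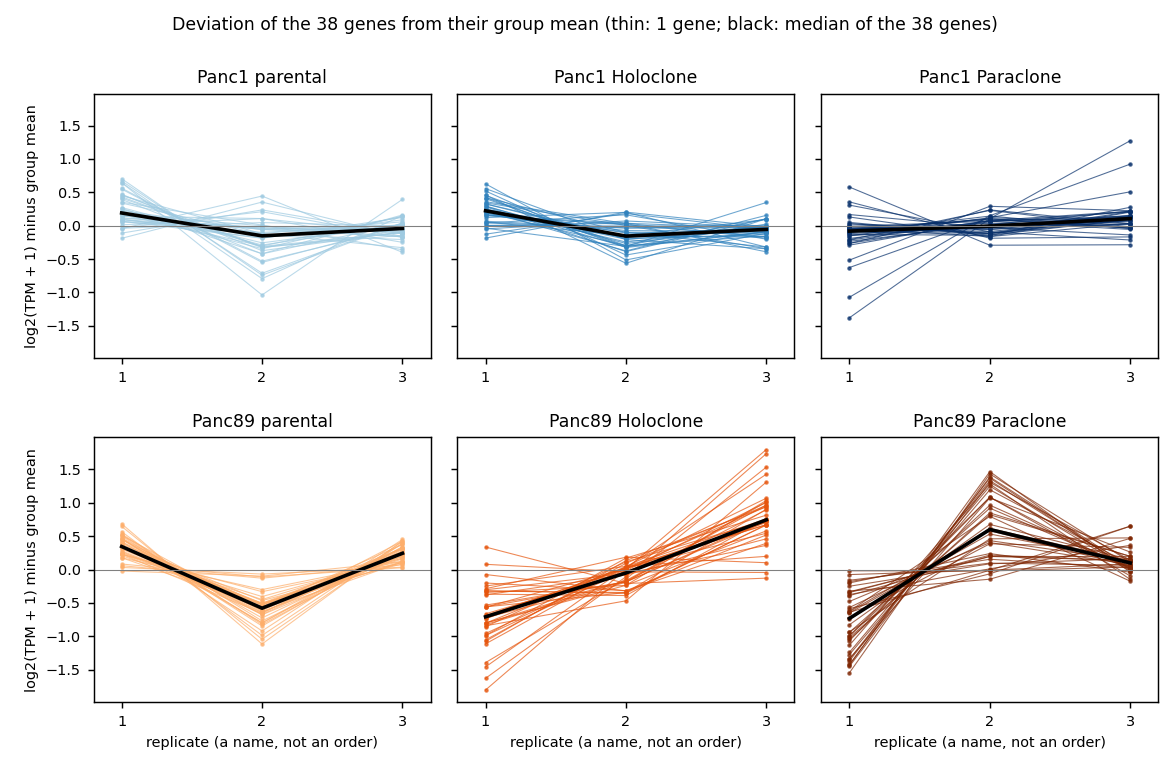
Deviation of each of the 38 genes from its group mean (vertical axis, log2(TPM + 1)) in the 3 replicates of each group (horizontal axis), with the median of the 38 genes in black. In Panc89 parental cells all 38 thin lines have their lowest point at replicate 2, and the Panc89 panels spread more widely than the Panc1 panels.

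Genes outside the 38 had the same lowest library in 2 of the 3 Panc89 groups. Of the 35 other interferon-stimulated genes, 35 were lowest in parental replicate 2, 29 in Paraclone replicate 1, and 28 were highest in Holoclone replicate 3. *IFNL1* was lowest in the same libraries, at 1.01 TPM in parental replicate 2, 0.424 TPM in Holoclone replicate 1 and 0.212 TPM in Paraclone replicate 1, and highest in Holoclone replicate 3, at 3.92 TPM. *DDX58*, the sensor RIG-I, was at 43.8, 63.3 and 114 TPM in Holoclone and at 27.2, 165 and 67.8 TPM in Paraclone cells. For *IFNB1* the Holoclone values were 0.632, 1.76 and 2.71 TPM, and the Paraclone values, 0.569, 0.595 and 0.363 TPM, were highest in replicate 2, as for *IFNL1*, but lowest in replicate 3. Mitochondrial transcripts took 5.62%, 8.50% and 6.18% of all TPM in the Holoclone libraries. The part of these levels in the variation between replicates was not tested.

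Across the comparisons within a line and the difference between the lines, 25 of the 38 genes were called at least once in the fit over all 6 groups, as were 69.6% of all tested genes, and 13 were not. They were *STAT2*, *IRF9*, *IFIH1*, *IFIT3*, *OAS3*, *BST2*, *RSAD2*, *CMPK2*, *ISG20*, *ISG15*, *USP18*, *HERC5* and *HERC6*. With only the groups compared, 5 of these 13 were called, *STAT2*, *IFIT3*, *ISG20* and *USP18* between the Panc1 clones, *BST2* in Panc89 Holoclone against parental cells, and *ISG20* also in Panc89 Paraclone against parental cells. For *BST2* the change between Holoclone and Paraclone cells was -0.10 ± 0.42 in Panc1 and -0.44 ± 0.42 in Panc89, and for *ISG15* it was -0.66 ± 0.55 and 0.31 ± 0.55. Changes of these sizes did not exceed 2 standard errors, so that none was detectable with 3 replicates.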

How the data were processed

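RNA of parental, Holoclone and Paraclone Panc1 and Panc89 cells was sequenced by the authors from a stranded poly-A library, pseudoaligned with kallisto 0.46.1 (submitters' processing notes, which name GRCh38) and summarised per gene as scaled TPM. The deposited table held log2(TPM + 1) of 40266 genes, of which 10923 were 0 throughout. It held no counts, so that no count model, depth or counting interval could be given. Groups were taken from the labels.

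A gene was tested where 3 or more libraries reached 1 TPM, which left 16093 genes. They were fitted with limma 3.58.1 (R 4.3.3) as 6 group means, with an empirical Bayes trend, and a two-sided p was adjusted over all of them. A gene was called at an adjusted p below 0.05. The fold changes are on log2(TPM + 1) and understate those of low genes. Scripts were tested on simulated data. Every one of the 38 genes was named with its levels, and statistics were named for at most 6 called genes a direction and comparison. Pathway genes were named where called beyond 1 on the log2 scale between the clones, and *IFNL1* as the single measured gene of its list. Values of further genes (*IFNB1*, *IFNG*, *DDX58*, *IFNGR1*, genes set beside a called neighbour, and those shown for uncalled differences or for variation between replicates) were chosen after they were seen. Some results are not reported here. The genes and lists were chosen with earlier results of these data known. Alternatives were a pseudocount of 0.1, other filters and scalings, only the groups compared, no trend, a fold change threshold, a replicate block and each replicate left out. Positions were from GENCODE 44 and promoters from RefSeq (GRCh38.p14).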

Additional observations from a re-analysis of the deposited data

Results flagged for a closer look

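For 8 of the 38 genes the change between Holoclone and Paraclone cells differed between the lines by a test of the difference itself (limma, Panc89 change minus Panc1 change). *IFI44* differed by 3.05 (adjusted p = 0.00059), from a change of -3.02 in Panc1 and 0.04 in Panc89. *IFIT2* differed by 2.06 (adjusted p = 0.0473), from -1.21 and 0.86, neither of them called, and this call was lost with no filter on low values (adjusted p = 0.0925) and with only the groups compared (0.0663). *IRF1* differed by 1.93 (adjusted p = 5.73e-05), from -0.62 and 1.31, both called. *EPSTI1* differed by 1.92 (adjusted p = 0.00412), from 0.22 and 2.13. *IFI6* differed by -2.38 (adjusted p = 0.0257), from -0.44 and -2.81, and this call was lost in the same 2 fits (0.0547 and 0.0503). *IFITM1* differed by -2.53 (adjusted p = 0.0103), from 0.76 and -1.77. *IFITM2* differed by -2.60 (adjusted p = 0.00026), from 0.46 and -2.14. *IFI27* differed by -3.67 (adjusted p = 0.00383), from 0.38 and -3.29. Each clone was grown from 1 cell, so that a difference between the lines cannot be told apart from one between these clones.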

How the results depend on the processing

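The counts of called genes between the lines were stable under every alternative run, at 36 to 37 in parental, 35 to 36 in Holoclone and 29 to 32 in Paraclone cells. Between Holoclone and Paraclone cells of Panc1, the 10 called genes became 4 with no filter on low values, 18 with only the groups compared, 6 with a log2 fold change over 1 as well, and 3 to 8 with 1 replicate left out. In Panc89 the 8 became 4 with only the groups compared and 5 to 12 with 1 replicate left out, and the 8 differences between the lines became 6 to 12. Against parental cells, Panc1 Holoclone cells gave 3 to 4 in place of 5, Panc1 Paraclone cells 5 to 7 in place of 6, Panc89 Holoclone cells 7 to 20 in place of 14, and Panc89 Paraclone cells 3 to 13 in place of 6, each with 1 replicate left out. With only the groups compared, Panc1 Paraclone cells gave 10 and Panc89 Holoclone cells 5, and with no filter Panc89 Paraclone cells gave 3. The fits that leave out groups or replicates hold fewer samples, and the cause of these changes was not tested. No direction was reversed among the 69 results of called genes, at most 6 a direction and comparison, for which this was checked. Without counts, limits set by depth could not be given.

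Replicates of a line shared numbers, but the numbers did not pair the libraries: 18 correlations of deviations lay between -0.32 and 0.19, 3 of them over 0.1. With a replicate block within each line the counts were 37, 36 and 31 between the lines, 8, 8 and 8 between the clones and for their difference, and 4, 6, 14 and 6 against parental cells.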
